A study of Solanum lycopersicum with 3 samples.

Results

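Ve2 and Eix1 are tomato genes for cell surface receptor-like proteins, and their transcripts were followed across RNA preparations of tomato fruit pericarp. The members were all probe sets whose symbol, on the platform or in the current annotation, is Ve2 or Eix1. That gave 1 probe set for each gene, so 2 genes of the 802 named on the array, which is the Affymetrix tomato GeneChip. Both were chosen by their measured log2 difference Ex2 pellet minus Ex2, among the lowest of the named genes. That difference shares its Ex2 array with Ex2 minus Ex1, so both are given as a description and support nothing.

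All RNA came from pericarp, the fleshy fruit wall, of glasshouse-grown Solanum lycopersicum, cultivar Ailsa Craig, and the labels give no treatment or genetic change. The Ex2 pellet group is RNA from the cell debris left by the Ex2 method and extracted again by that method. The labels repeat the Ex2 text for it, and do not say in what the debris was resuspended. The Ex2 group is RNA from the supernatant made with 2 ml per g of a Tris buffer with 0.6 M KCl, 0.2 M sucrose and 30 mM MgCl2, cleared at 10000 x g for 15 min before detergent and phenol were added. The Ex1 group is RNA from tissue taken up directly in 1 ml per g of a buffer with phenol and then mixed with phenol and chloroform. Each preparation started from about 10 to 12 g of tissue. The labels give neither the ripening stage of the fruit nor how many plants or fruit were pooled. Each group is 1 array. There is no replicate and no test, the spread between samples is unknown, and the number of arrays limits the precision.

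The question, from the title of the study, was which preparation recovers mRNAs of secreted and endomembrane proteins. Receptor-like proteins are made on the endoplasmic reticulum and carried to the plasma membrane. They have leucine-rich repeats outside the cell, a single membrane span and a short tail inside it that lacks a kinase domain, and they signal through partner receptor kinases. Ve1 and Ve2 are the genes of the tomato Ve locus, known for resistance to the wilt fungus Verticillium. Ve1 is the receptor that recognises the fungal protein Ave1. Eix1 and its relative Eix2 both bind a fungal xylanase that induces ethylene production. Eix2 passes the signal on, and Eix1 is known to dampen it.

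The transcripts of both genes were about 5-fold brighter on the Ex2 array than on either of the others, on the deposited scale. With the arrays scaled on spiked-in bacterial RNAs, Ex2 was above Ex1 by 2.21-fold for Ve2 and 2.24-fold for Eix1, and the pellet was below Ex2 by 3.73-fold for Ve2 and 3.16-fold for Eix1. Ve2 read 79.0 on the Ex2 pellet array, 463 on the Ex2 array and 89.5 on the Ex1 array, in units of deposited probe set intensity. Eix1 read 703 on the Ex2 pellet array, 3452 on the Ex2 array and 664 on the Ex1 array. Both had 1 high array, Ex2, and 2 lower arrays close to each other. On the deposited scale the Ex2 pellet lay below Ex1 for Ve2, which was under the brightness filter on both, and slightly above Ex1 for Eix1. Scaled on the spikes, the pellet lay below Ex1 for both genes, by 0.76 for Ve2 and 0.50 for Eix1 on the log2 scale. The arrays differ in how the RNA was extracted. Ex2 and the Ex2 pellet are the supernatant and the debris of the same method, and Ex1 is RNA from tissue taken up directly. The parts of RNA recovery, cell types and RNA per cell in these differences cannot be told apart and were not tested.

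**Figure D1:**
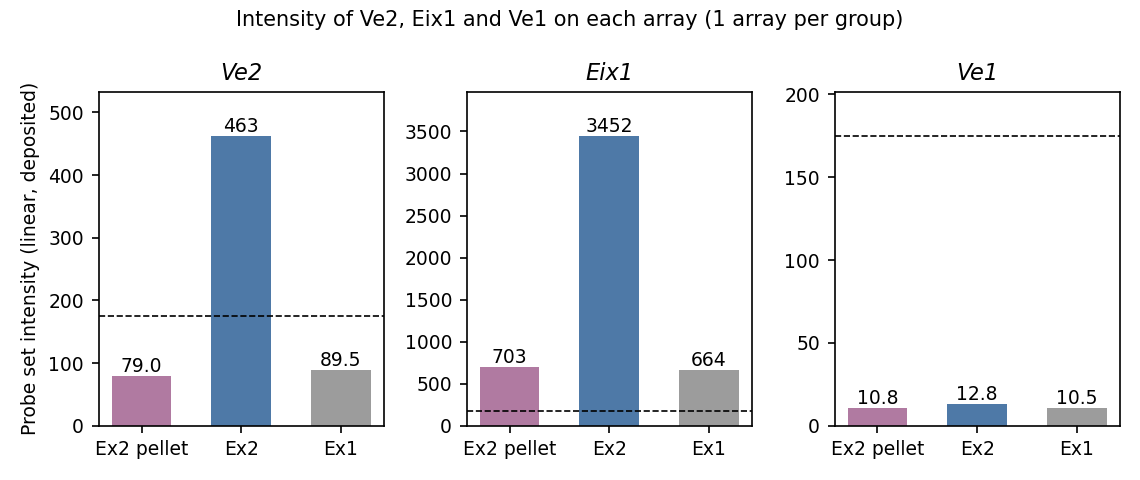
Deposited probe set intensity (linear axis from 0, 1 array per bar) of Ve2, Eix1 and Ve1 on the Ex2 pellet, Ex2 and Ex1 arrays, each gene on its own axis, with the brightness filter of 175 as a dashed line. Ve2 crosses the line on Ex2 at 463, Eix1 lies above it on all 3 arrays, and Ve1 lies far below it.

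Their place among the other probe sets moved with the array. Of the 10038 probe sets that are not controls, Ve2 was brighter than 36.8% on the Ex2 pellet array, 68.8% on the Ex2 array and 38.3% on the Ex1 array. Eix1 was brighter than 76.6% on the Ex2 pellet array, 96.1% on the Ex2 array and 76.0% on the Ex1 array. To be compared between a pair of arrays, a probe set had to reach 175 on at least 1 of them, which is the median intensity over all arrays. Eix1 met this on every array. Ve2 met it on Ex2 alone, so it entered both comparisons with Ex2 through that value and did not enter the one between the Ex2 pellet and Ex1.

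In Ex2 minus Ex1, on the scale of log2(intensity + 1), Ve2 differed by 2.36 and Eix1 by 2.38. Ve2 was 5.13-fold and Eix1 5.19-fold higher in Ex2. Of the 5568 probe sets compared, 17.3% were past 2-fold in that direction and 10.1% in the other. Of the 495 named genes compared, 20.2% were past it in that direction and 4.65% in the other. Among the probe sets, 307 had a larger difference than Ve2 and 292 a larger one than Eix1. Among named genes, 41 lay above Ve2 and 40 above Eix1. The median over all probe sets compared was -0.25, and over named genes it was -0.03.

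In Ex2 pellet minus Ex2, Ve2 differed by -2.54 and Eix1 by -2.29. Ve2 was 5.80-fold and Eix1 4.90-fold lower in the pellet. Of the 5538 probe sets compared, 19.8% were past 2-fold in that direction and 17.0% in the other. Of the 499 named genes compared, 21.4% were past it in that direction and 9.22% in the other. Nothing is read from these shares about the members, which were selected on this difference. Both genes were chosen for a low place here: 44 probe sets lay below Ve2 and 120 below Eix1, with 3 named genes below Ve2 and 9 below Eix1. The probe sets compared had a median of 0.07. This comparison and the one before share the Ex2 array, so a high value on that array moves the first up and the second down at once.

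In Ex2 pellet minus Ex1, the values of both genes were close to each other. Eix1 differed by 0.08, near the median of 0 over the 5297 probe sets compared. Ve2, below the brightness filter on both arrays, differed by -0.18. Neither was past 2-fold here. Of the probe sets compared, 3.78% were past it with the higher value in the pellet and 4.78% with the lower. Of the 471 named genes, those shares were 5.10% and 2.55%.

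The members were also set against each other. Their log2 differences lay 0.02 apart in Ex2 minus Ex1, 0.24 apart in Ex2 pellet minus Ex2 and 0.26 apart in Ex2 pellet minus Ex1. Their closeness in the first pair of comparisons was largely set by the choice of both genes for low values in Ex2 pellet minus Ex2, so nothing is read from it.

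**Figure D2:**
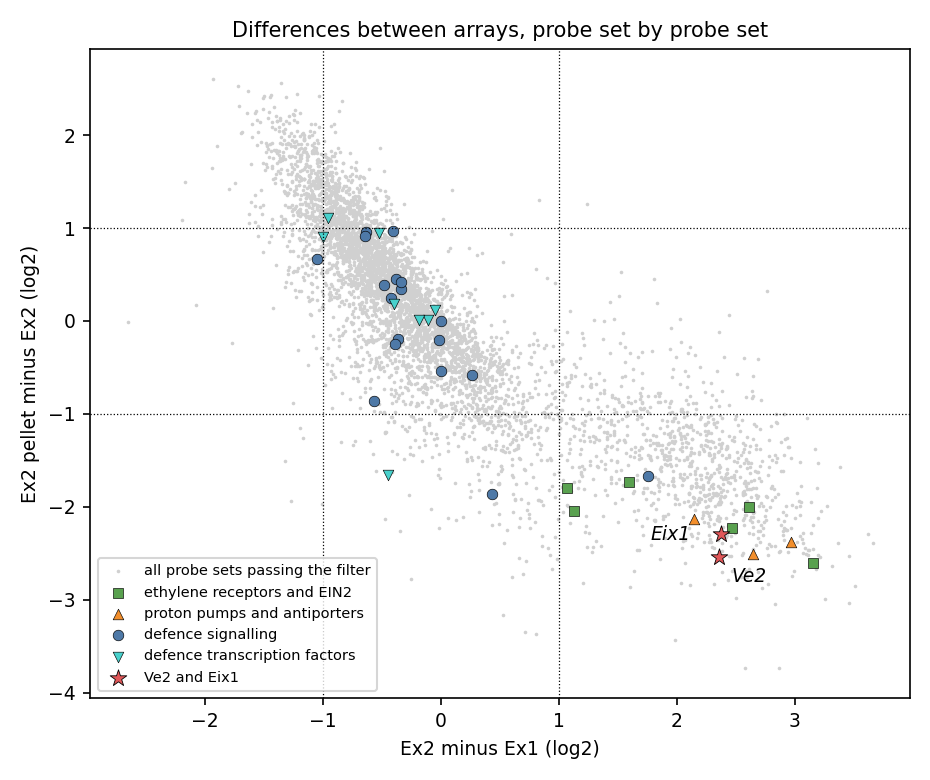
Log2 differences Ex2 minus Ex1 (x axis) and Ex2 pellet minus Ex2 (y axis) for probe sets passing the brightness filter in any comparison, with list genes that passed coloured and 2-fold marked by dotted lines. The axes share the Ex2 array, which tilts the cloud downward. Ve2 (2.36, -2.54) and Eix1 (2.38, -2.29) lie at the lower right among ethylene receptor and proton pump genes.

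The size of these differences moved with the scaling of the arrays. The bacterial RNAs bioB, bioC and bioD, which are spiked in at hybridisation, differed by a median of 1.22 in Ex2 minus Ex1 over 21 probe sets. They differed by -0.65 in Ex2 pellet minus Ex2. Of ribosomal RNA, the 25S probe set had 568 on the Ex2 pellet array, 367 on the Ex2 array and 1809 on the Ex1 array. With the arrays scaled on the spikes, Ve2 differed by 1.14 and Eix1 by 1.16 in Ex2 minus Ex1. The spike-scaled values in Ex2 pellet minus Ex2 were -1.90 for Ve2 and -1.66 for Eix1. With RPL3 and RPL8, genes of ribosomal proteins, as the scale, Ve2 differed by 2.91 and Eix1 by 2.92 in Ex2 minus Ex1. That scaling gave, in Ex2 pellet minus Ex2, -2.97 for Ve2 and -2.73 for Eix1. Both genes were thus past 2-fold, in the same direction, in both comparisons with Ex2 under each scaling run. The sign of Eix1 in Ex2 pellet minus Ex1 turned with scaling on the spikes, to -0.50.

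**Figure D3:**
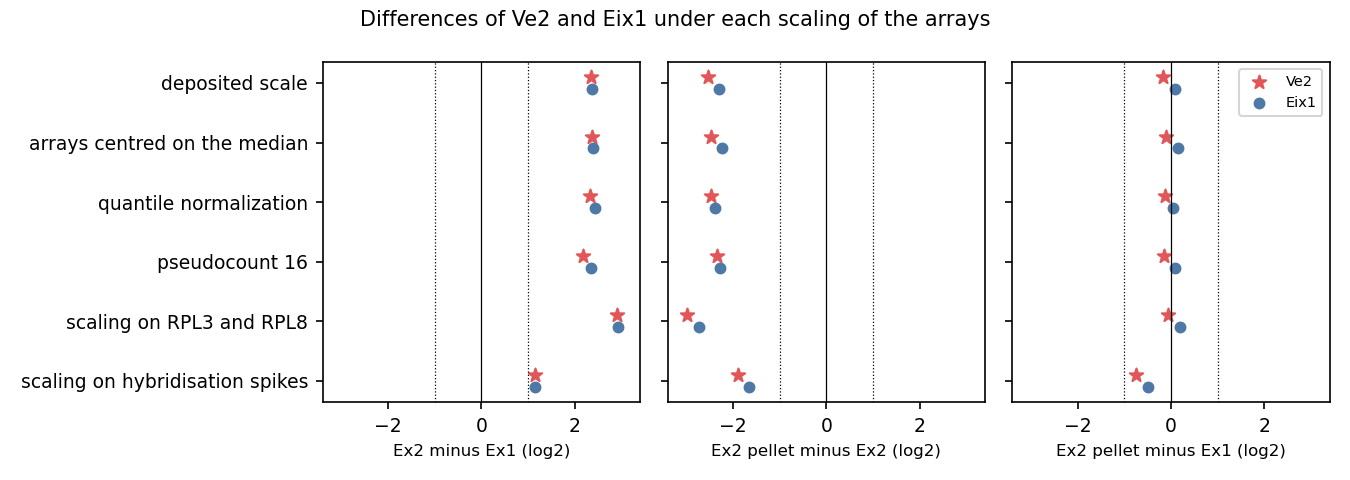
Log2 differences of Ve2 (stars) and Eix1 (circles) in each comparison (panels) under the deposited scale and 5 alternatives (down the page), with 0 as a solid line and 2-fold as dotted lines. In the panels with Ex2 all points lie beyond 2-fold, from 1.14 to 2.92 in Ex2 minus Ex1 and from -2.97 to -1.66 in Ex2 pellet minus Ex2. In the third panel they lie within 2-fold.

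Of the relatives of the members, Ve1 had a named probe set. It read 10.8 on the Ex2 pellet array, 12.8 on the Ex2 array and 10.5 on the Ex1 array, far below the brightness filter on all 3. Its differences were 0.26 in Ex2 minus Ex1, -0.22 in Ex2 pellet minus Ex2 and 0.04 in Ex2 pellet minus Ex1, in values too dim to rank. In RefSeq's annotation of assembly SLM_r2.1, 1 small nuclear RNA gene is listed between Ve1 and Ve2. In the same annotation Eix2 and Eix1 are direct neighbours. Eix2 had no named probe set and was not analysed here. These relatives are similar in sequence. Probe sequences were not used here, so how much Ve1 or Eix2 RNA adds to the signal of Ve2 or Eix1 was not tested.

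The named genes nearest to Ve2 and Eix1 in pattern are given as a description. Likeness was measured as the Euclidean distance between the pairs of log2 differences, Ex2 minus Ex1 and Ex2 pellet minus Ex2, over the 3 arrays and 500 other named genes, and so uses the difference the members were chosen by. Nearest to Ve2 were the cation/proton antiporter gene NHX2 (distance 0.29), the ethylene receptor gene ETR6 (0.32), the endoglucanase gene CEL8 (0.36), the beta-galactosidase gene TBG1 (0.36) and the plasma membrane proton pump gene LHA2 (0.46). Nearest to Eix1 were ETR6 (0.11), CEL8 (0.13), LHA2 (0.28), NHX2 (0.34) and the ethylene receptor gene ETR1 (0.37). Ve2 and Eix1 lay 0.24 from each other. No other named gene was nearer to Ve2 than that, and 2 were nearer to Eix1.

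The values of these genes follow from how they were picked, near the members in both differences with Ex2. NHX2 read 192 on the Ex2 pellet array, 1095 on the Ex2 array and 174 on the Ex1 array. CEL8 read 103 on the Ex2 pellet array, 472 on the Ex2 array and 94.2 on the Ex1 array. LHA2 read 1266 on the Ex2 pellet array, 5548 on the Ex2 array and 1251 on the Ex1 array. In ETR1 the pellet stood further above Ex1, with 361 on the Ex2 pellet array, 1456 on the Ex2 array and 238 on the Ex1 array. Most probe sets of this pattern have no name here. Within the distance of the fifth named gene lay 79 probe sets around Ve2, of which 73 had no name, and 98 around Eix1, of which 92 had no name.

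The order of the arrays was counted over the named genes, on the deposited scale unless another is named. Ve2 had the order Ex2, Ex1, pellet from high to low, with its Ex1 and pellet values under the filter. That order was found in 94 of the 502 named genes passing the filter in any comparison, itself included (18.7%). Eix1 had the order Ex2, pellet, Ex1, found in 105, itself included (20.9%). These counts were 41 and 45 with scaling on the spikes, and Eix1 took the order of Ve2. They were 146 and 203 with scaling on RPL3 and RPL8. Of those 502 named genes, 202 were highest on Ex2 and 76 were at least 2-fold above both other arrays, against 86 and 31 with scaling on the spikes. Scaling on RPL3 and RPL8 gave 349 and 119. At least 4-fold above both were 21 named genes (4.18%), Ve2 and Eix1 included, and 167 of 5671 probe sets (2.94%). Both members were chosen for low values in Ex2 pellet minus Ex2, which is part of this criterion. Nothing is read from their place among the 21. Scaled on the spikes, 0 named genes were at least 4-fold above both, and with scaling on RPL3 and RPL8 there were 47. Among those 21 genes, 7 had pellet and Ex1 values within 0.25 of each other on the log2 scale, Ve2 and Eix1 among them, and 14 were at least 0.5 higher in the pellet than in Ex1. The pellet was below Ex1 in 2 of the 21, Ve2 at -0.18, under the filter on both arrays, and TBG1 at -0.01. Bright probe sets of 1 gene lay a median of 0.18 apart in Ex2 pellet minus Ex1, over 25 genes. Differences this small do not settle the order of pellet and Ex1. With scaling on the spikes, 1 of the 21 was at least 0.5 higher in the pellet, 10 had the pellet below Ex1 and 9 had both within 0.25. Scaling on RPL3 and RPL8 gave 14, 1 and 5 for the same counts. The polygalacturonase beta subunit gene GP1 had the highest Ex2 pellet minus Ex1 difference of the 21 on the deposited scale, at 1.33, and is named after its values were seen.

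Other surface receptor genes gave little to compare. Of 38 symbols listed as surface receptors, 6 matched named genes, the members and 4 others. The 4 others were Ve1 and the receptor kinase genes PRK1, PRK2 and PRK3, which are known from pollen. All 4 were below the brightness filter, PRK3 with 8.90 on every array. Of the intracellular resistance proteins, PTI1, a kinase that acts with the resistance kinase Pto, passed the filter. It read 594 on the Ex2 pellet array, 591 on the Ex2 array and 591 on the Ex1 array, with the same deposited value on the last pair. Asc-1, a gene of sphingolipid synthesis that gives resistance to an Alternaria toxin, was too dim to be counted. It read 39.3 on the Ex2 pellet array, 101 on the Ex2 array and 25.3 on the Ex1 array.

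The proteins that carry defence signals inside the cell were described from a list of 39 symbols, of which 20 matched and 18 passed the filter. Like the other lists, it was chosen with earlier results of these data known. In Ex2 minus Ex1, 1 of the 18 was at least 2-fold higher and 1 at least 2-fold lower, beside 20.2% and 4.65% of named genes. Their median was -0.37, beside -0.03 for all named genes. Between the Ex2 pellet and Ex2, 0 were at least 2-fold higher and 2 at least 2-fold lower, beside 9.22% and 21.4% of named genes, with a median of 0.12. The signs of both medians turned with scaling on RPL3 and RPL8, to 0.17 and -0.31. With scaling on the spikes, 15 of the 18 were at least 2-fold lower in Ex2 than in Ex1, beside 65.3% of named genes, and for 7 the pellet was at least 2-fold above Ex2, beside 28.9%. Between the Ex2 pellet and Ex1, 0 were at least 2-fold higher and 2 at least 2-fold lower, beside 5.10% and 2.55% of named genes.

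Single genes of that list differed among themselves. The calcium-dependent protein kinase gene CDPK1 read 213 on the Ex2 pellet array, 680 on the Ex2 array and 201 on the Ex1 array. It was 3.38-fold higher in Ex2 than in Ex1, and its pellet value was 3.17-fold below Ex2, the list member nearest in shape to Ve2 and Eix1 as judged after its values were seen. The MAP kinase kinase gene MKK4 was 2.07-fold lower in Ex2 than in Ex1. The MAP kinase gene MAPK10 read 83.5 on the Ex2 pellet array, 307 on the Ex2 array and 227 on the Ex1 array, with the pellet as its low array. The 7 genes for 14-3-3 proteins (TFT), soluble adaptors that bind phosphorylated partners, differed by -0.65 to -0.33 in Ex2 minus Ex1, TFT7 being the brightest of the list. NPR1, the regulator of salicylic acid responses, differed by -0.39 there, and the chaperone gene HSC80 by -0.01. The NADPH oxidase genes RBOH1 and Wfi1, whose proteins make reactive oxygen at the plasma membrane, were dim. RBOH1 read 14.7 on the Ex2 pellet array, 32.2 on the Ex2 array and 14.8 on the Ex1 array. Wfi1 read 28.0 on the Ex2 pellet array, 58.4 on the Ex2 array and 25.5 on the Ex1 array. Both oxidase genes were highest on Ex2, in values below the filter.

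Of 12 transcription factors of defence that matched, 8 passed the filter. On the deposited scale all 8 were below 0 in Ex2 minus Ex1 (median -0.42) and 0 were past 2-fold, beside 20.2% of named genes higher and 4.65% lower. With scaling on the spikes all 8 were at least 2-fold lower in Ex2 (median -1.64), beside 65.3% of named genes, and with scaling on RPL3 and RPL8 the median turned to 0.12. Their median in Ex2 pellet minus Ex2 was 0.15, with PTI4, an ethylene response factor that interacts with Pto, 2.15-fold higher in the pellet. That was 1 of 8 past 2-fold higher and 1 past 2-fold lower, beside 9.22% and 21.4% of named genes. That median turned to -0.29 with scaling on RPL3 and RPL8. WRKYIId was the 1 factor of the 8 with a negative difference there, 3.16-fold below Ex2 and 4.31-fold below Ex1 in the pellet. JERF1, the brightest factor, differed by 0.01. The 8 factors ran from -0.995 to -0.05 in Ex2 minus Ex1 and from -1.66 to 1.11 in Ex2 pellet minus Ex2. The members, chosen for a low value in the second, are not compared with them.

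Ethylene receptors with EIN2, and proton pumps with antiporters, were the membrane protein genes set beside the members. Both lists were chosen with earlier results of these data known. Their shares past 2-fold are thus a description and support nothing. Of the 7 ethylene receptor and EIN2 genes, 6 passed the filter in the comparisons with Ex2. In Ex2 minus Ex1 the 6 had a median of 2.03 (range 1.07 to 3.15), and every one was past 2-fold, beside 20.2% of named genes. With scaling on the spikes that median was 0.82 (range -0.15 to 1.94), and 4 of the 6 lay above 0. Of the 6, 3 were then at least 2-fold higher in Ex2, beside 9.90% of named genes. Their median in Ex2 pellet minus Ex2 was -2.02 (range -2.60 to -1.73), again with every one past 2-fold lower, beside 21.4% of named genes. EIN2, which passes the ethylene signal on, lay furthest from 0 in both, at 3.15 and -2.60. Of the 4 pump and antiporter genes, 3 passed, all past 2-fold in both, with 2.15 to 2.96 in Ex2 minus Ex1 and -2.50 to -2.13 in Ex2 pellet minus Ex2. Scaled on the spikes, 2 of the 3 were past 2-fold in Ex2 minus Ex1. The values of Ve2 and Eix1 lay inside the range of the ethylene genes in both, where the choice of the members put them low in the second. Between the Ex2 pellet and Ex1 the ethylene genes ran from -0.91 to 0.60 and the pumps from 0.02 to 0.59, with Ve2 at -0.18 and Eix1 at 0.08 between these ends for the ethylene genes. With 1 array per group no difference between the members and these genes was tested.

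**Figure D4:**
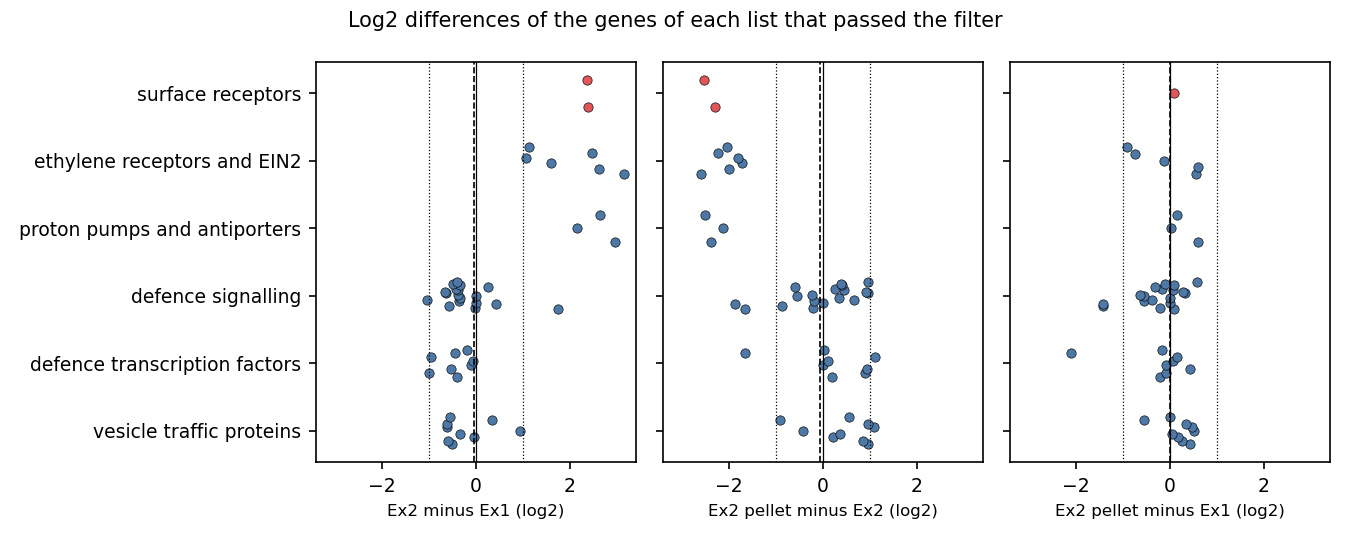
Log2 differences (x axis) in each comparison (panels) of the genes of each list that passed the filter, 1 point per gene, with the median of all named genes dashed and 2-fold dotted. The surface receptors shown are Ve2 and Eix1 (Eix1 alone in the third panel). On this deposited scale the ethylene receptors and EIN2 run from 1.07 to 3.15 in the first panel, with EIN2 at the upper end. The defence transcription factors lie from -0.995 to -0.05 there.

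The tissue label was checked against markers. The 8 ripening genes matched, of 12 symbols, were above the brightness filter on every array. E8 read 10418 on the Ex2 pellet array, 10418 on the Ex2 array and 10548 on the Ex1 array. The fruit polygalacturonase gene PG2 read 14827 on the Ex2 pellet array, 16220 on the Ex2 array and 13236 on the Ex1 array. On the deposited scale 3 of the 8, EXP1, PE1 and TBG4, were at least 2-fold higher in Ex2 than in Ex1. Beside them were 20.2% of named genes, and 0 of the 8 were at least 2-fold lower, beside 4.65%. PG2 differed by 0.29 there. With scaling on the spikes 1 of the 8 was at least 2-fold higher and 4 at least 2-fold lower, beside 9.90% and 65.3% of named genes. Some markers of other cell types differed between arrays too. Whether the cells present differed was not tested. The epidermal lipid transfer gene TSW12 read 1059 on the Ex2 pellet array, 1240 on the Ex2 array and 302 on the Ex1 array, and LE16, another lipid transfer gene, read 1014 on the Ex2 pellet array, 688 on the Ex2 array and 394 on the Ex1 array. The green tissue gene CAB4 read 522 on the Ex2 pellet array, 227 on the Ex2 array and 306 on the Ex1 array. PSBO, the other green tissue gene matched, read 3944 on the Ex2 pellet array, 3665 on the Ex2 array and 3944 on the Ex1 array. No listed vascular (4 symbols) or seed (5 symbols) marker matched a named probe set. The part of these markers, the spikes and the ribosomal RNA in the values of Ve2 and Eix1 was not tested.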

How the data were processed

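The authors deposited 1 intensity per probe set and array; the range of the values is that of a linear scale. GCOS 5.0 and RMA are named in the submitters' processing notes, without order or parameters, so scaling and centring of the arrays are not given in the sources used here. Median intensities of the 10038 non-control probe sets were 170.0 (Ex2 pellet), 177 (Ex2) and 179 (Ex1). The other 171 of 10209 probe sets are controls.

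Symbols are those of GEO's platform annotation, which can be old; by gene ID, 885 probe sets took their current symbol from RefSeq (assembly SLM_r2.1). Of the non-control probe sets 909 had 1 name and 0 had several; the remaining 9129 are unnamed here. A gene's probe set of highest mean over the arrays represents it. Differences of the deposited values were taken on log2(intensity + 1), which understates those of dim genes. The call is a 2-fold difference among probe sets whose brighter value reached 175, the median over all arrays. No p-value was computed.

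By rule, the named genes are the members, the 5 nearest to each, and list genes that passed the filter, with the furthest from 0 and the brightest of a list at least; dim list genes are named beyond it. The members and lists were chosen with earlier results of these data known, and the vesicle traffic and receptor partner lists after their values were seen. The scalings of list medians, list counts and array orders were added after seeing the data. Protein features planned beforehand were not run, because no protein sequences were used here. The counting was tested on simulated data. The software was Python 3.11.15, NumPy 2.4.6, pandas 2.3.3 and matplotlib 3.10.9.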

Additional observations from a re-analysis of the deposited data

How the results depend on the processing

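With 1 array per group no sample can be left out, and Ve2 was under the brightness filter on the Ex2 pellet and Ex1 arrays, which limits its smaller values; with the filter at the upper quartile (637) it entered no comparison. Of the members' values under other scalings, pseudocount and thresholds, 41 kept their direction and side of the threshold. The other thresholds were set on the deposited scale alone and leave the value unchanged, so they could not turn a direction. The 1 exception was Eix1 in Ex2 pellet minus Ex1, at -0.50 with scaling on the spikes. The planned comparison of protein features was not run.

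Counts of probe sets past 2-fold moved more. In Ex2 minus Ex1 (964 higher, 560 lower) the upper-quartile filter gave 606 and 297, and scaling on the spikes 426 and 4025. Scaling on RPL3 and RPL8 gave 1252 and 28, and the lower count was 21 at 3-fold and 1725 at 1.5-fold. In Ex2 pellet minus Ex2 (943 higher, 1095 lower) the upper-quartile filter gave 592 and 635, the 3-fold threshold 255 and 538, scaling on the spikes 2176 and 509, and scaling on RPL3 and RPL8 381 and 1548. The higher count was 1712 at 1.5-fold. In Ex2 pellet minus Ex1 (200 higher, 253 lower) the upper-quartile filter gave 96 and 97, 3-fold 43 and 58, 1.5-fold 647 and 669, and scaling on the spikes 44 and 979. Fewer probe sets enter under a stricter filter, and a constant shift moves every difference.

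Of the list medians, 7 turned sign. With scaling on RPL3 and RPL8 the defence signalling medians became 0.17 (Ex2 minus Ex1) and -0.31 (Ex2 pellet minus Ex2), and with no filter the median of the second comparison was -0.10. The defence transcription factor medians became 0.12, -0.29 and, in Ex2 pellet minus Ex1, 0.016 with scaling on RPL3 and RPL8. The pump median in Ex2 pellet minus Ex1 became -0.44 with scaling on the spikes. Scaling on the spikes also moved the Ex2 minus Ex1 medians to 0.82 for ethylene receptors and EIN2, -1.59 for defence signalling and -1.64 for defence transcription factors.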

Other observations

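Genes for proteins that move vesicles along the route of a surface receptor, and that are themselves made in the cytosol, are given here beside Ve2 and Eix1. This list of 9 genes was drawn up after their values were seen, and all 9 passed the filter. Its counts and medians are thus a description, and nothing is read from them about Ve2 and Eix1. In Ex2 minus Ex1, on the deposited scale, 0 were past 2-fold, beside 20.2% of named genes higher and 4.65% lower, the median was -0.52, and 2 lay above 0, the small GTPase gene SAR2 at 0.94 and tVPS41, of vacuolar sorting, at 0.35. In Ex2 pellet minus Ex2 the median was 0.56, with the coat protein gene copz1 2.14-fold higher in the pellet, 1 of 9 beside 9.22% of named genes. With scaling on the spikes 7 of the 9 were at least 2-fold lower in Ex2 than in Ex1, beside 65.3% of named genes, and 6 at least 2-fold higher in the pellet than in Ex2, beside 28.9%. With scaling on RPL3 and RPL8 the medians were 0.03 and 0.12. The vesicle GTPase gene Rab11a read 533 on the Ex2 pellet array, 296 on the Ex2 array and 445 on the Ex1 array. The low array for this gene, on the deposited scale, was Ex2.

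Further signalling partners, also listed after their values were seen, were on the array. CITRX, a thioredoxin known to bind the tail of the receptor-like protein Cf-9, read 706 on the Ex2 pellet array, 352 on the Ex2 array and 717 on the Ex1 array. It was 2.03-fold lower in Ex2 than in Ex1 and 2.00-fold higher in the pellet than in Ex2. MAPKKKalpha, a kinase of cell death signalling, read 309 on the Ex2 pellet array, 457 on the Ex2 array and 355 on the Ex1 array, under 2-fold in each comparison. MKK3 and GPA1, the other genes of this list, were below the filter.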
